A study of Sus scrofa with 20 samples.

Results

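miR-223 was represented by 2 entries, hsa-miR-223-3p and hsa-miR-223-5p, the strands cut from the 3′ and 5′ sides of 1 hairpin, out of 608 miRNAs in read counts made against human miRNA names. Both were chosen by name, and both were among the 245 miRNAs with enough reads to test. Each small RNA library came from the blood mononuclear cells, a fraction of lymphocytes and monocytes obtained by density gradient, of a female American Yorkshire pig aged 80 to 90 days that weighed 36 to 41 kg. The ICH group held 10 libraries from blood drawn 6 h after intracerebral hemorrhage, a bleed modelled by injecting 2 to 4 mL of autologous blood through a burr hole into white matter of the frontal lobe. The Control group held 10 libraries from blood drawn before that injection. The libraries were paired by replicate number, 1 to 10, each ICH library with the Control library of the same number. The sample labels do not state that a number stands for 1 animal. A sham operation was not part of the samples used, so the bleed, the operation and the passage of time cannot be told apart.

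miR-223 is transcribed mainly in cells of the myeloid line, where the factors PU.1 and C/EBP drive it, and its level rises as neutrophils mature. Platelets also carry it in quantity. It is known as a brake on inflammation, through targets such as the inflammasome sensor NLRP3. The 3p strand is the guide strand that is mostly loaded into Argonaute and pairs with messenger RNAs, and the 5p strand is its less abundant partner. In bulk libraries, a change in the number of cells that contain an miRNA and a change in the amount per cell cannot be told apart.

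The libraries held 919313 to 2177834 human-reference reads in ICH and 975988 to 2173902 in Control. The pig-reference table had 0 entries for miR-223, so the reads of these pig samples were counted against the human strands, and whether the pig strands differ from them was not tested. The labelled blood cells were checked on their miRNAs. miR-142-3p and miR-142-5p, which are found across blood cell lineages, together took 1.12% to 2.17% of reads in ICH and 1.44% to 2.85% in Control. Of the markers of other tissues, the muscle miRNAs miR-1-3p and miR-133a-3p and the liver miRNA miR-122-5p did not have enough reads to be tested, with at most 57, 1 and 27 reads in any library. Markers known from epithelia were present in both groups: miR-203a-3p averaged 1709 ± 241 CPM in ICH and 2347 ± 381 CPM in Control, and miR-200c-3p averaged 36.7 ± 11 CPM in ICH and 27.7 ± 9.55 CPM in Control (SD, n = 10 each; CPM, counts scaled to a common library size by the TMM method). The source of these epithelial miRNAs was not tested.

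Both arms of miR-223 rose after ICH. Against the earlier sample, miR-223-5p was 1.76-fold higher and miR-223-3p was 1.54-fold higher. miR-223-5p had the smallest p of the 245 miRNAs tested, and its log2 fold change ranked 2 among them. The rise of miR-223-3p ranked 11 by log2 fold change and 20 by p.

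miR-223-3p had a lowest, median and highest level of 1283, 1729 and 2802 CPM in ICH, against 607.0, 1215 and 1934 CPM in Control. The groups overlapped, and of the Control libraries only the highest, replicate 5, lay above the ICH median. The mean was 1885 ± 503 CPM in ICH and 1228 ± 353 CPM in Control (SD, n = 10 each). By edgeR's quasi-likelihood test with the replicate number as a block and Benjamini-Hochberg adjustment, its log2 fold change of 0.63 ± 0.15 (SE) passed at an adjusted p of 0.00856. Without the block it was 0.62 ± 0.17 (edgeR, adjusted p = 0.0263).

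miR-223-5p had a lowest, median and highest level of 203.7, 392.5 and 536.6 CPM in ICH, against 126.4, 208.2 and 297.1 CPM in Control. The ICH libraries fell into 2 runs of 5. Numbers 3 to 7 lay at 203.7 to 294.3 CPM, within the Control range, and numbers 1, 2, 8, 9 and 10 lay at 490.6 to 536.6 CPM, above every Control library. The mean was 389.6 ± 143 CPM in ICH and 214.7 ± 59.4 CPM in Control (SD, n = 10 each). Its log2 fold change was 0.82 ± 0.12 in edgeR with the block (SE; adjusted p = 6.75e-05) and 0.86 ± 0.20 without the block (edgeR, adjusted p = 0.0235).

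In the fit with the block, 32 of 245 miRNAs rose (13.1%) and 15 fell (6.12%), which makes 19.2% in either direction; without it 7 rose (2.86%) and 2 fell (3.67% in either direction), and both arms were among the rises of either fit. The balance of rises and falls turned with the scaling, to 15 and 24 with library totals and 18 and 29 with upper-quartile scaling. miR-223-5p was higher in ICH in 10 of 10 pairs, which held for 3.67% of the miRNAs tested. miR-223-3p was higher in 9 of 10 pairs, and 12.7% of miRNAs were higher in at least 9. The exact sign-flip test within pairs, two-sided on log2 CPM, gave p = 0.00195 for miR-223-5p, the smallest it can give, and p = 0.00586 for miR-223-3p.

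**Figure D1:**
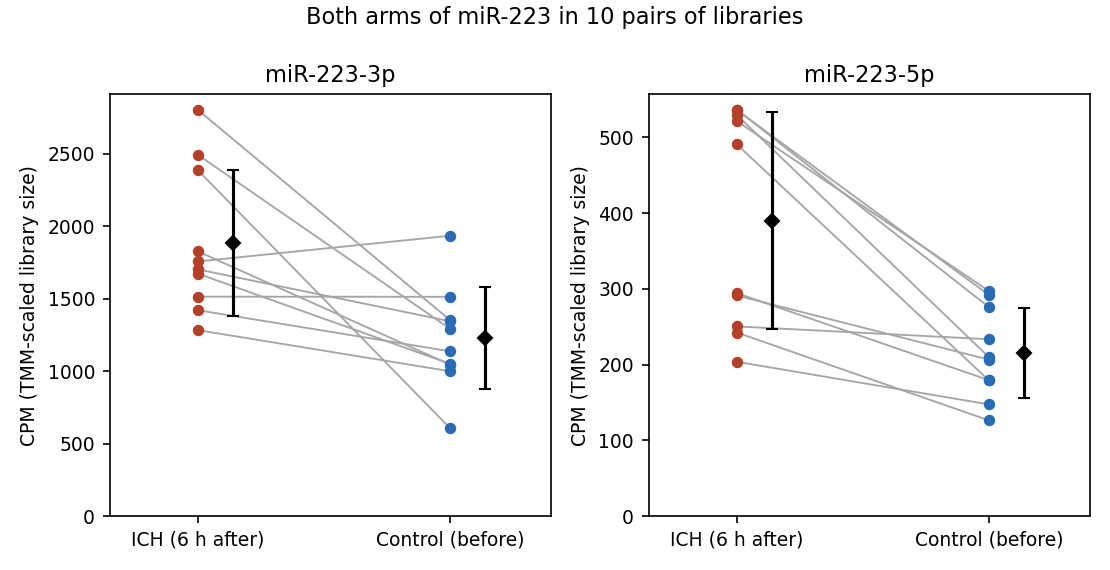
Levels of miR-223-3p and miR-223-5p in CPM (vertical axes, from 0) in 10 ICH and 10 Control libraries, with lines joining libraries of the same replicate number and diamonds with bars giving the mean ± SD of each group. All lines of miR-223-5p run higher on the ICH side, whose points lie in 2 runs, at 203.7 to 294.3 and at 490.6 to 536.6 CPM; 9 of 10 lines of miR-223-3p do so.

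The size of the rise differed between pairs, and the arms did not rank the pairs alike. miR-223-3p changed most in replicate 4, with 2386 CPM in ICH and 607.0 CPM in Control, a 3.93-fold difference. It was 2.07-fold higher in replicate 3 and 1.93-fold higher in replicate 6. In replicate 8 it was 1514 CPM in ICH and 1513 CPM in Control, and in replicate 5 it was lower after ICH, at 1757 CPM against 1934 CPM in Control. The median of the 10 folds was 1.44.

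miR-223-5p changed most in replicates 10 and 1. Replicate 10 had 490.6 CPM in ICH and 179.2 CPM in Control, a 2.74-fold difference, and replicate 1 had 529.5 CPM in ICH and 209.8 CPM in Control, a 2.52-fold difference. In replicate 4, where the 3p arm moved most, the 5p arm was 1.38-fold higher. The smallest change was again in replicate 5, at 1.07-fold, and the median fold was 1.80. Counting error was small beside this spread: 1 SD of a Poisson count was 1.28% to 3.75% for miR-223-3p and 3.72% to 7.60% for miR-223-5p, and it covers counting error only.

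The call for miR-223-3p depended on the scaling and on a single pair. With library totals in place of TMM its log2 fold change was 0.52 ± 0.21 (edgeR with the block, adjusted p = 0.111), and without replicate 6 it was 0.55 ± 0.18 (adjusted p = 0.0647). The scaling moved all miRNAs together: the median log2 fold change of the 245 was 0.03 with TMM and -0.08 with library totals. Measured from that median, miR-223-3p lay 0.60 above it under TMM, library totals, DESeq2's size factors and upper-quartile scaling alike, and miR-223-5p lay 0.79 above it under each. A shift shared by all miRNAs leaves this distance as it is, so it is no test of the rise. Without replicate 4 the distance was 0.45 for miR-223-3p and 0.82 for miR-223-5p, and without replicate 6 it was 0.55 and 0.79. The rise of miR-223-5p passed the test in all 21 alternatives.

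**Figure D2:**
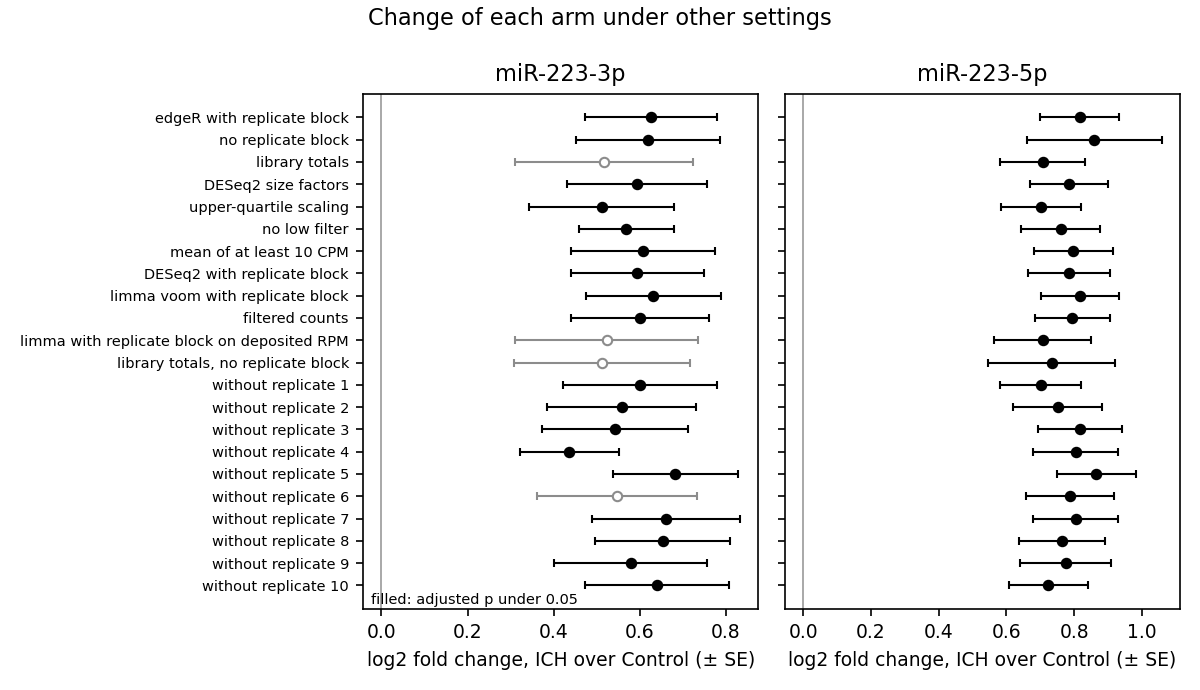
The log2 fold change of each arm, ICH over Control (horizontal axes, point ± SE), under the fit reported and 21 alternatives (rows), with filled points at an adjusted p under 0.05. All points lie above 0; miR-223-5p is filled throughout, and miR-223-3p is open with library totals (with or without the block), on the deposited RPM and without replicate 6.

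As a share of reads, which uses no scaling factor, miR-223-3p had a lowest, median and highest value of 0.127%, 0.164% and 0.314% in ICH, against 0.0581%, 0.122% and 0.202% in Control. It was higher in 8 of 10 pairs, and the exact sign-flip test on the shares gave p = 0.0566. The corresponding values of miR-223-5p were 0.0201%, 0.0384% and 0.0545% in ICH, against 0.0141%, 0.0226% and 0.0336% in Control, higher in 9 of 10 pairs (exact sign-flip test, p = 0.00391). Ordered by reads within a library, miR-223-3p ranked between 39 and 59 in ICH and between 50 and 74 in Control, and miR-223-5p between 76 and 105 in ICH and between 90 and 121 in Control. Both strands thus stood higher in the order after ICH, with ranges that overlapped. The TMM factors that separate CPM from plain shares were 0.839 to 1.12 in ICH and 0.832 to 1.25 in Control.

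Ratios to other blood miRNAs within a library also need no scaling. Each arm was set against miR-142-3p (all blood cell lineages), miR-150-5p (mature lymphocytes), miR-16-5p (abundant in most blood cells), miR-23a-3p (myeloid cells), miR-191-5p (platelets and leukocytes) and miR-451a (red cells), giving 12 ratios tested within pairs. Of these ratios, 10 were higher after ICH past an adjusted p of 0.05 (exact sign-flip tests, Benjamini-Hochberg over the 12), and the exceptions were the 2 ratios to miR-451a. The share of all miRNAs that would pass the same tests against these denominators was not computed. The count of 10 is therefore not set apart from other miRNAs.

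Set against miR-142-3p, the guide strand had a log2 ratio of -0.69 ± 0.21 in ICH and -1.52 ± 0.38 in Control (SD, n = 10 each), so that the ratio was 1.78-fold higher. Its values ran from -1.0 to -0.24 in ICH and from -2.38 to -1.02 in Control, and the groups did not overlap. Against the same denominator the groups failed to overlap in this direction for 0.41% of 244 miRNAs, which is miR-223-3p alone. It was higher in 10 of 10 pairs (6.56% of miRNAs; exact sign-flip test, adjusted p = 0.00391). The lowest ICH and the highest Control value lay close together, and miR-142-3p itself had a log2 fold change of -0.20 ± 0.095 (edgeR with the block, adjusted p = 0.161).

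Against miR-150-5p the log2 ratio of miR-223-3p ran from -2.53 to -1.54 in ICH and from -4.03 to -2.69 in Control, again without overlap. That was so for 0.82% of 244 miRNAs against this denominator, and part of this ratio comes from miR-150-5p, which fell (log2 fold change -0.38 ± 0.10, edgeR with the block, adjusted p = 0.00898). The ratio of miR-223-5p to miR-142-3p was 2.01-fold higher after ICH, and that to miR-150-5p was 2.29-fold higher. Each was higher in 10 of 10 pairs (6.56% and 11.5% of miRNAs with those denominators). The groups overlapped in both ratios. Against miR-142-3p the values ran from -4.38 to -2.06 in ICH and from -5.13 to -3.24 in Control. Against miR-150-5p they ran from -6.01 to -3.53 in ICH and from -6.36 to -4.61 in Control.

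With miR-16-5p and miR-23a-3p in the denominator, the mean log2 ratio of miR-223-3p was higher by 0.84 ± 0.19 and 0.67 ± 0.18 (SE, n = 10 pairs, exact sign-flip tests, adjusted p = 0.0104 and 0.00586). These ratios were higher in 8 and 9 of 10 pairs, and the groups overlapped in both. The shares of all miRNAs at those counts were not computed for these denominators. On log2 CPM, 24.9% of miRNAs were higher in at least 8 pairs and 12.7% in at least 9. Part of the first comes from miR-16-5p, which had a log2 fold change of -0.21. With the abundant miR-191-5p the ratio of miR-223-3p was higher by 0.61 ± 0.25 in 8 of 10 pairs (exact sign-flip test, adjusted p = 0.0352). That call was lost in 6 of the 10 fits that left out 1 pair, those without replicate 1, 2, 3, 4, 6 or 9 (adjusted p up to 0.0703). The miR-223-5p ratios to miR-16-5p and miR-23a-3p were higher by 1.02 ± 0.20 and 0.85 ± 0.16, each in 10 of 10 pairs, against 7.79% and 4.1% of all miRNAs with those denominators. To miR-191-5p it was higher by 0.79 ± 0.13 in 9 of 10 pairs, and against that denominator 11.5% of miRNAs were higher in at least 9 pairs and 20.9% in at least 8. With miR-451a in the denominator, the change was -0.07 ± 0.21 for miR-223-3p and 0.11 ± 0.37 for miR-223-5p (exact sign-flip tests, adjusted p = 0.787 each). miR-451a itself had a log2 fold change of 0.64 ± 0.28 (edgeR with the block, adjusted p = 0.14).

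**Figure D3:**
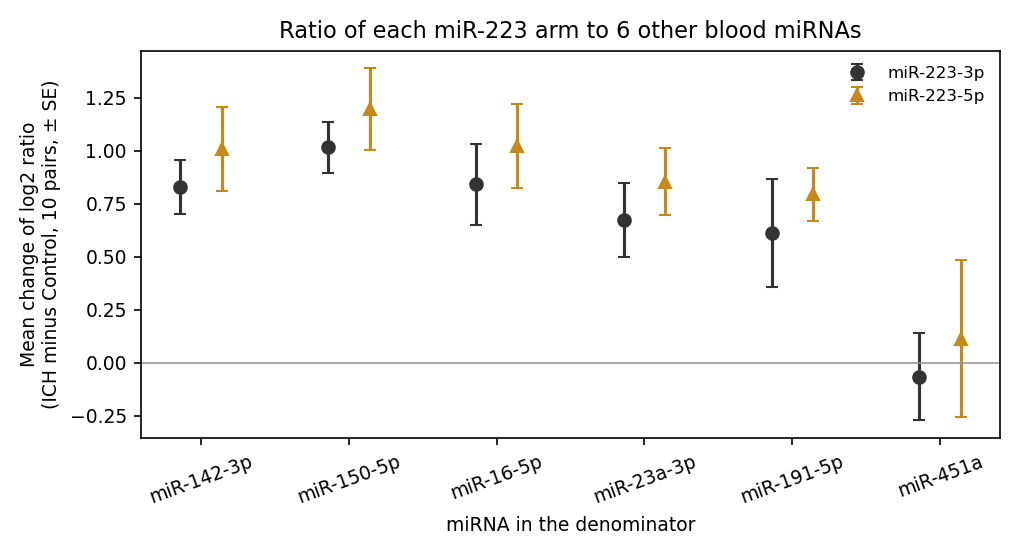
Mean change of the log2 ratio of each miR-223 arm to 6 other blood miRNAs, ICH minus Control (vertical axis; point ± SE over 10 pairs). The changes lie between 0.61 and 1.20 for the first 5 denominators and near 0 for miR-451a.

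The share of the 3p strand among miR-223 reads was next compared. It ran from 70.8% to 92.1% in ICH and from 78.0% to 91.4% in Control, so that each library held 2.42 to 11.7 reads of the 3p strand per 5p read in ICH and 3.54 to 10.6 in Control. The log2 ratio of 5p to 3p was -2.32 ± 0.85 in ICH and -2.50 ± 0.52 in Control (SD, n = 10 each). The change of 0.18 had a 95% interval of -0.39 to 0.75, was positive in 7 of 10 pairs and did not pass (exact sign-flip test, p = 0.494; limma over 57 hairpins with both arms tested, adjusted p = 0.925). Leaving out 1 pair moved this change to between 0.07, without replicate 10, and 0.37, without replicate 4 (limma, adjusted p = 0.26). In that comparison 1.75% of hairpins passed, and the single one was miR-27a, named after its values were seen. Its 5p-to-3p log2 ratio was -4.36 ± 0.49 in ICH and -5.04 ± 0.50 in Control (SD, n = 10 each; limma, adjusted p = 0.0113).

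Individual libraries departed far from these means. Replicate 4 had a log2 5p-to-3p ratio of -3.54 in ICH and -2.03 in Control, the lowest value of ICH beside the third highest of Control. Replicate 1 went the other way, with -1.28 in ICH and -2.25 in Control, and so did replicate 10, with -1.53 in ICH and -2.66 in Control. The counting intervals did not reach across such gaps: the 3p share of replicate 4 was 92.1% in ICH (95% exact Clopper-Pearson interval 91.2% to 93.0%) and 80.5% in Control (77.7% to 83.0%). Among the 57 hairpins the SD of the miR-223 ratio ranked 4 in ICH and 18 in Control.

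**Figure D4:**
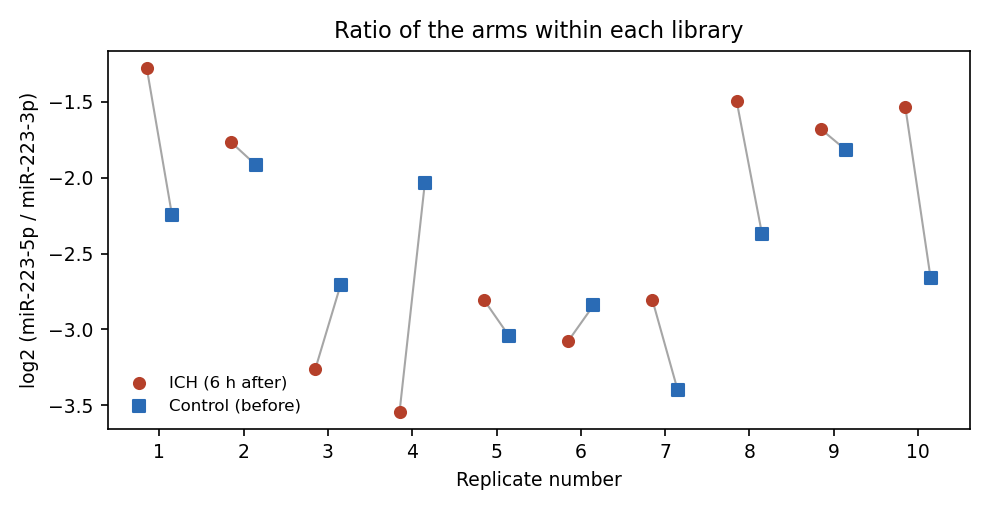
The 5p-to-3p log2 ratio of miR-223 (vertical axis) by replicate number (horizontal axis), ICH as circles and Control as squares joined by lines. The ICH values of replicates 3 to 7 lie between -3.54 and -2.80 and those of replicates 1, 2, 8, 9 and 10 between -1.76 and -1.28, while Control values run from -3.40 to -1.82.

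The other miRNAs ranked the same ICH libraries apart, but without a clear gap. The first principal component of the 243 remaining miRNAs, centred within groups, held 23.6% of the variance. On it ICH numbers 1, 2, 8, 9 and 10 scored 1.45 to 5.82 and ICH numbers 3 to 7 scored -5.04 to -0.73. The step between these sets, from -0.73 to 1.45, was smaller than that from 3.36 to 5.82 inside the higher set. In Control, numbers 5, 6 and 7 scored -4.23 to -3.92 and the others 0.11 to 4.0, and numbers 5, 6 and 7 also had the 3 lowest 5p-to-3p ratios of Control, at -3.40 to -2.84. This component was not among the comparisons set out beforehand, and its part in the arm values was not tested.

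In Control the log2 5p-to-3p ratio was lower in libraries with more reads, with Pearson's r = -0.70 (permutation p = 0.0236, adjusted p = 0.0584) and Spearman's rho = -0.64 (permutation p = 0.055), and r = -0.60 without the 2 libraries farthest from the median. It was also lower where the TMM factor was higher, with r = -0.66 (permutation p = 0.0389, adjusted p = 0.0584) and rho = -0.72 (permutation p = 0.0234), but r was -0.33 without 2 libraries. None of these passed after adjustment over 3 relations chosen after seeing the data. The third related the Control level of miR-223-3p to its ICH level and gave r = -0.12 (permutation p = 0.738) and rho = 0.13 (permutation p = 0.732), with r = 0.40 without 2 pairs. Whether the ratio ran with these measures in ICH was not tested, because its values there lay in 2 separate runs of 5 libraries.

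Across the 10 pairs, the changes of the arms had r = -0.21 (permutation p = 0.554, adjusted p = 0.633) and rho = -0.26 (permutation p = 0.47), with r = -0.60 without the 2 pairs farthest from the median. In Control the levels of the arms had r = 0.28 (permutation p = 0.45, adjusted p = 0.60) and rho = 0.15 (permutation p = 0.681), with r = -0.23 without 2 libraries. Neither passed, and 8 relations were computed in this family. The relation between the arms over the 10 ICH libraries was among the 8 and did not pass either (permutation p of Pearson's r = 0.0541, adjusted p = 0.108; permutation p of Spearman's rho = 0.205, adjusted p = 0.33). Its pooled r is not given, because the 5p levels of ICH lay in 2 separate runs, and 5 libraries in each are too few for a value within them.

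The change of miR-223-3p within pairs ran with that of miR-142-3p, at r = 0.81 (permutation p = 0.00657, adjusted p = 0.0343) and rho = 0.78 (permutation p = 0.0106, adjusted p = 0.0846), and r was 0.74 without the 2 pairs farthest from the median. With miR-150-5p it was r = 0.81 (permutation p = 0.00858, adjusted p = 0.0343) and rho = 0.60 (permutation p = 0.0728), and r = 0.64 without those pairs. By Pearson's r, pairs with larger rises of miR-223-3p tended to have higher changes of these miRNAs, and the reason was not tested. With the red cell miRNA miR-451a, r = 0.79 (permutation p = 0.0164, adjusted p = 0.0438) and rho = 0.56 (permutation p = 0.0959), but r was 0.10 without replicates 4 and 5, so that relation rested on them. For the platelet and endothelial miR-126-3p, r was -0.09 (permutation p = 0.815, adjusted p = 0.815) and rho was -0.19 (permutation p = 0.608), with r = -0.25 without 2 pairs. For miR-21-5p, induced in activated immune cells, r was 0.49 (permutation p = 0.153, adjusted p = 0.244) and rho was 0.44 (permutation p = 0.206), with r = 0.06 without 2 pairs. No rho of this family passed after adjustment. These levels share a library total and a scaling factor.

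The miRNAs most like each arm were then named by Spearman's rho of log2 CPM over the 20 libraries, centred on the group means. For miR-223-3p these were miR-142-3p (rho = 0.77), miR-30b-5p (0.75), miR-3607-3p (0.69), miR-29b-3p (0.69) and miR-150-5p (0.67), against a median rho of -0.02 over the other miRNAs. Their own changes went the other way or were small: the log2 fold change was -0.39 for miR-30b-5p and -0.37 for miR-29b-3p, which both fell, and -0.03 for the scarce miR-3607-3p. For miR-223-5p they were let-7i-5p (0.79), miR-10b-5p (0.73), miR-532-5p (0.72), miR-10a-5p (0.71) and miR-30c-1-3p (0.68), against a median of 0.03. Of these miR-10a-5p, a miRNA of a HOX gene cluster, rose (log2 fold change 0.52), and let-7i-5p had a log2 fold change of 0.29 (edgeR with the block, adjusted p = 0.0589). The lists share no name, and the arms had a rho of -0.36 with each other. The points share library depth and scaling, and no test was run on them.

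miR-223 was set beside other myeloid miRNAs. Of 9 tested members of a list of 13, 3 rose and 0 fell, and besides the pair of miR-223 strands it was miR-27a-5p, the partner strand of miR-27a, that rose. Over all miRNAs tested 13.1% rose, and apart from the miR-223 strands the list gave 1 rise among 7 miRNAs, a share near that background. With library totals, or without replicate 6, the count was 2. The median log2 fold change of the 9, which include the miR-223 strands, was 0.19, against 0.03 over all miRNAs tested. It was 0.08 with library totals and 0.07 with upper-quartile scaling, against -0.08 and -0.09 over all miRNAs tested. miR-27a-5p averaged 229.7 ± 93.8 CPM in ICH and 134.1 ± 35.5 CPM in Control (SD, n = 10 each), with a log2 fold change of 0.73 ± 0.11 (edgeR with the block, adjusted p = 8.34e-05). The guide strands of its cluster did not pass, at -0.04 ± 0.087 for miR-23a-3p, 0.04 ± 0.087 for miR-27a-3p and 0.11 ± 0.080 for miR-24-3p, and the signs of miR-27a-3p and miR-24-3p changed with the scaling. miR-22-3p, a miRNA of monocytic differentiation, was higher in 8 of 10 pairs (24.9% of miRNAs were in at least 8) with a log2 fold change of 0.22 ± 0.083 (adjusted p = 0.0624). As a sum, the 13 myeloid miRNAs held 1.96% to 2.83% of reads in ICH and 1.71% to 2.80% in Control, higher in 5 of 10 pairs.

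Markers of the other cells in such preparations moved as well. Of 8 lymphocyte miRNAs tested 5 fell and 0 rose (median log2 fold change -0.35), and those that fell, against 6.12% of all miRNAs, were miR-150-5p, miR-181a-5p, miR-29a-3p, miR-29b-3p and miR-31-5p. The list held 1.81% to 3.45% of reads in ICH and 2.24% to 4.32% in Control, and was higher in ICH in 1 of 10 pairs. Without the replicate block 0 of the 8 passed. In the red cell list 2 of 4 rose, against 13.1% of all miRNAs, and these were miR-144-3p (0.47 ± 0.14, edgeR with the block, adjusted p = 0.0212) and miR-486-5p (0.63 ± 0.13, adjusted p = 0.00107). The count was 1 without replicate 4, without replicate 6, with library totals or with upper-quartile scaling, and 0 without the block. The red cell list held 0.0432% to 0.113% of reads in ICH and 0.0106% to 0.0849% in Control, higher in 9 of 10 pairs. Its defining miR-451a averaged 370.3 ± 169 CPM in ICH and 262.3 ± 177 CPM in Control and did not pass (edgeR with the block, adjusted p = 0.14).

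In the platelet list 1 of 5 tested members rose, which with so few members is not set apart from the 13.1% of all miRNAs that rose. It was miR-126-3p, with 440.3 ± 81.1 CPM in ICH and 300.6 ± 71.3 CPM in Control (SD, n = 10 each; log2 fold change 0.56 ± 0.10, edgeR with the block, adjusted p = 0.000415). The others did not pass, among them miR-191-5p (0.02 ± 0.086, with a sign that changed with the scaling) and miR-340-5p (-0.03 ± 0.11), and the list's sum was 4.37% to 5.64% of reads in ICH and 4.35% to 6.09% in Control. The red cell and platelet miRNAs were above 0 in both groups, and the part of those cells in the rise of miR-223 was not tested.

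Among 7 miRNAs of inflammatory signalling, 3 rose and 1 fell, against 13.1% and 6.12% of all miRNAs. miR-21-5p rose by a log2 fold change of 0.58 ± 0.093, miR-9-5p by 0.54 ± 0.11 and miR-147b by 0.60 ± 0.16, and miR-132-3p fell (-0.58 ± 0.15; edgeR with the block, adjusted p = 0.000153, 0.00139, 0.011 and 0.00877 in that order). miR-146a-5p and miR-155-5p, which are induced through NF-kB, had log2 fold changes of -0.15 ± 0.10 and 0.20 ± 0.091 and did not pass. Without the block 1 rose, miR-21-5p, and 0 fell. The list took 13.6% to 21.5% of reads in ICH and 8.29% to 17.9% in Control, most of it miR-21-5p, which averaged 182181 ± 30428 CPM in ICH and 122864 ± 25883 CPM in Control. Of the epithelial miRNAs, miR-203a-3p fell (-0.45 ± 0.092, edgeR with the block, adjusted p = 0.00116). miR-200c-3p rose (0.43 ± 0.15, adjusted p = 0.045), but that call was lost with library totals, DESeq2's size factors, upper-quartile scaling, no block (adjusted p = 0.233) or without replicate 6.

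**Figure D5:**
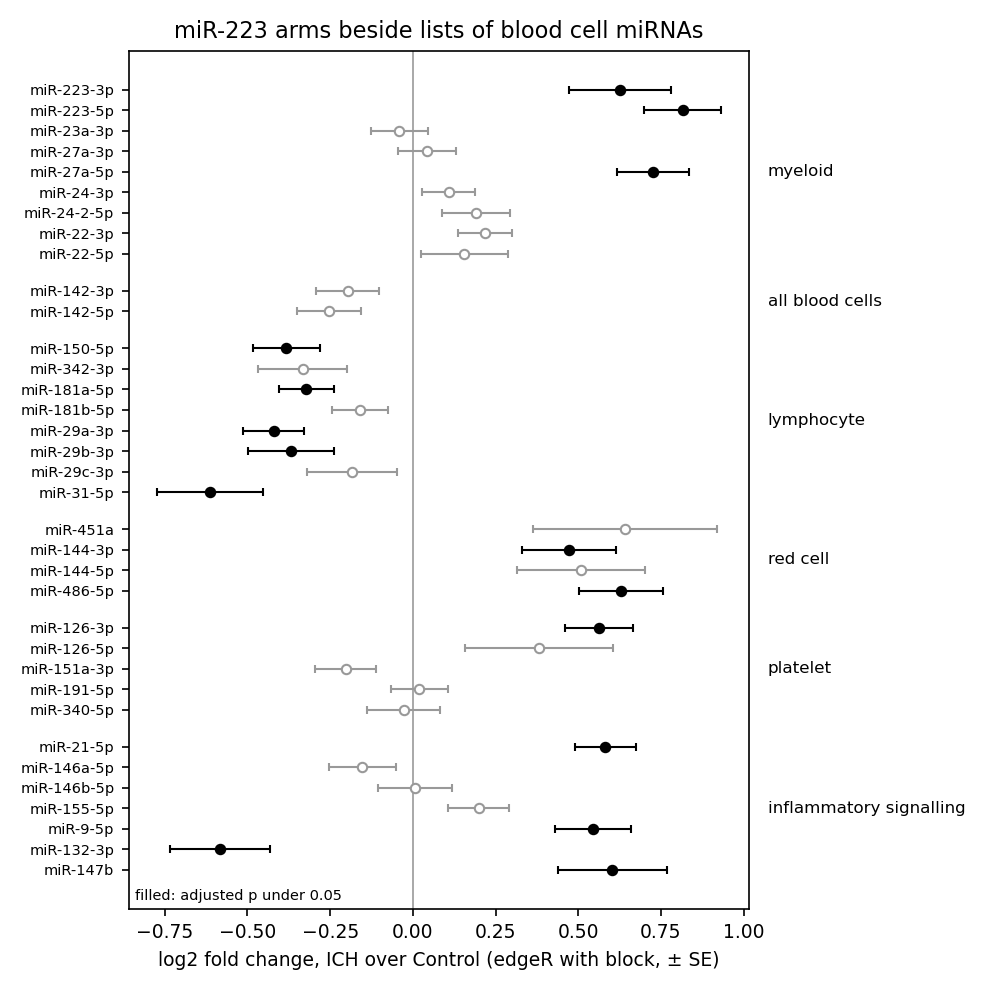
The log2 fold change, ICH over Control (horizontal axis; point ± SE, edgeR with the block), of the tested members of 6 lists of blood miRNAs, with filled points at an adjusted p under 0.05. In the myeloid list the filled points are the miR-223 strands and miR-27a-5p; the filled lymphocyte points all lie below 0.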

How the data were processed

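Whole-number read counts per miRNA were deposited by the authors against human and pig miRNA names, with filtered counts and RPM. Bowtie, FastQC and bcl2fastq are named, without versions, in the submitters' processing notes; rules for counting pig reads against human names were not stated there. The authors' deposited RPM equals the filtered counts rescaled by their library totals, within 0.005. The filter kept 96.8% to 98.2% of miR-223-3p and 89.0% to 95.5% of miR-223-5p reads.

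Unfiltered counts were tested in edgeR 4.0.16 (R 4.3.3; filterByExpr, TMM, robust quasi-likelihood fit, group plus replicate block, threshold 0.05 over 245 miRNAs), ICH over Control. limma 3.58.1 and DESeq2 1.42.0 served alternatives. The SE is the log2 fold change over the square root of F. log2 CPM used a prior count of 2, ratios CPM plus 1 from library totals. Permutation tests used 100000 resamples. Fits were checked on simulated data.

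The block follows the series' design text, which describes blood before and after ICH. Same-numbered samples deviated together from group means (correlations 0.146 to 0.672, all 10 over 0.1). No 2 libraries of a group agreed within sampling noise (chi-square per degree of freedom at least 22.9). The members and lists were chosen with earlier results of these data known. Named were the arms, the ratio and relation partners, the 5 miRNAs most like each arm, and called list members, or the 2 with the smallest p. The deposited pig counts were searched for miR-223 only. The Clopper-Pearson intervals cover counting error only, while the interval of the arm ratio change covers the spread between pairs.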

Additional observations from a re-analysis of the deposited data

Results flagged for a closer look

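In 118 groups of 10 libraries (the miRNAs named, the ratios, the arm ratio and the read totals), 4 had an extreme value whose gap to the next one, as a share of the whole range, passed 0.466, the 95% critical value of Dixon's test; chance gives about 1 in 20. All 4 were libraries of replicate 4. Set against miR-142-3p, miR-223-3p in Control replicate 4 had a log2 ratio of -2.38, below -1.72 to -1.02 in the other Control libraries. Its miR-144-3p was 4.71 log2 CPM, below 6.09 to 7.55. ICH replicate 4 had 7.96 log2 CPM of miR-126-3p, below 8.69 to 9.08, and 6.00 log2 CPM of miR-486-5p, below 6.97 to 7.99. Without replicate 4, the log2 fold change of miR-223-3p was 0.44 ± 0.11 (edgeR with the block, adjusted p = 0.00814) and that of miR-223-5p was 0.80 ± 0.12 (adjusted p = 0.000403).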

How the results depend on the processing

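The rise of miR-223-5p kept its direction and passed in all 21 alternatives. That of miR-223-3p kept its direction in all 21 and passed in 17. It did not pass with library totals (0.52), limma on the deposited RPM (0.52, adjusted p = 0.168), library totals without the block (0.51, chosen after seeing the data) or without replicate 6 (0.55); leaving out 1 pair at a time gave 0.44 to 0.68. Counts of rises and falls were 32 and 15 with the replicate block, 7 and 2 with no replicate block, 15 and 24 with library totals, 18 and 29 with upper-quartile scaling, 2 and 3 with library totals and no block, 19 to 33 and 12 to 28 without 1 pair, and 5 and 10 with limma on the deposited RPM. With 1 pair left out, the change of the miR-223-3p to miR-191-5p log2 ratio was 0.41 to 0.72 and lost its call in 6 of 10 cases, all but those of replicates 5, 7, 8 and 10; the ratios to miR-451a, which never passed, were -0.19 to 0.060 for 3p and -0.032 to 0.43 for 5p. Under library totals the correlation of the changes of the arms was 0.12, that of miR-223-3p with miR-126-3p was 0.32 and that with miR-21-5p was 0.74 (permutation test, adjusted p = 0.0304). The cause of these shifts was not tested. The other 9 ratios and the arm ratio kept their direction and their side of the threshold in all 14 alternatives each, the arm ratio change at 0.07 to 0.37 with 1 pair left out. Depth limits miR-223-5p most, with 173 reads in its lowest library.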
